A study of Mus musculus with 12 samples.

Results

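Microglia sorted from the hippocampus were compared here with microglia sorted from the cerebral cortex, gene by gene. The comparison rests on the 3 hippocampus and 3 cortex libraries of a study with 12 libraries, which also sampled striatum and cerebellum (3 libraries each). The libraries were taken by their region labels. All mice were wild type C57BL/6N males at postnatal day 60, and the labels name no treatment. For each library, tissue of one region was pooled from 3 to 5 mice, and 3000 live cells that were CD45low, CD11b+ and stained for TMEM119, a surface protein of resident microglia, were sorted. Their RNA was turned into cDNA with the Smart-Seq v4 kit, which copies whole transcripts from very small inputs, and made into libraries with the Nextera XT kit. The question was which genes adult microglia of these regions express at different levels. The labels do not say whether the 3 pools of a region came from different mice, so the spread between libraries may be partly technical, and the p-values measure only that spread.

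Microglia are the resident macrophages of the brain. They enter it early in development, depend on the receptor CSF1R for survival and on TGF-beta for their adult identity, and survey their surroundings with fine processes guided by purine receptors such as P2RY12. They take up dying cells, debris and synaptic material, which their lysosomes break down. The hippocampus, which serves memory and keeps forming neurons in the adult dentate gyrus, and the cerebral cortex give them different neuronal neighbours.

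The label was checked first. The deposited counts summed to between 9394829 and 14833340 per library, with 12214 to 13614 genes counted, and values are given below as CPM, counts scaled to library size with TMM factors, in the order of libraries 1, 2 and 3 of each region. Tmem119, whose product the sort used, was at 2601, 2107 and 1341 CPM in cortex and 2134, 1952 and 1712 CPM in hippocampus. P2ry12 was at 4171, 4085 and 4292 CPM in cortex and 5231, 5092 and 4298 CPM in hippocampus, and Sall1, a transcription factor of microglial identity, at 302, 649 and 634 CPM in cortex and 565, 322 and 668 CPM in hippocampus. The Y-linked genes Ddx3y, Eif2s3y, Kdm5d and Uty were counted in all 6 libraries and Xist, the RNA of the silenced X chromosome, in none. Genes that define border-associated macrophages, which sit in the meninges and around vessels, summed to 1195, 1793 and 2299 CPM in cortex and 2016, 1253 and 1957 CPM in hippocampus. Most of that sum came from Mrc1, Stab1, Dab2 and Maf; exons of Stab1, Maf and F13a1 overlap an opposite-strand gene. Of the more restricted markers, F13a1, Lyve1, Pf4, Cd163, Cbr2 and Ms4a7 were highest in cortex 3. There F13a1 was at 66.1 CPM and Lyve1 at 23.4 CPM, against 3.34 and 0 CPM in cortex 1. Others were highest elsewhere: Folr2 in hippocampus 2, Siglec1 in cortex 2, Cd209f in hippocampus 3 and Clec12a in hippocampus 1.

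Markers of other brain and blood cells were summed in the same way. The neuronal sum was 41.8, 26.2 and 10.3 CPM in cortex and 20.1, 60.4 and 20.8 CPM in hippocampus, with Snap25, a synaptic protein, at 4.25, 2.59 and 0.209 CPM in cortex and 2.003, 4.06 and 1.17 CPM in hippocampus. The astrocyte sum ranged from 46.3 to 123 CPM, the oligodendrocyte sum from 100.2 to 184 CPM and that of endothelial cells and pericytes from 460 to 666 CPM, nearly all of it Bsg, a gene that many cell types express. Choroid plexus and ependymal markers summed to 0, 22.8 and 115 CPM in cortex and 0.105, 56.3 and 1.17 CPM in hippocampus, so that cortex 3 and hippocampus 2 held the most in their regions. Among oligodendrocyte genes Mobp and Mal were at 0 in all 6 libraries, as was Gjb6 among astrocyte genes and Cd3e, Cd3d, Ly6c2 and S100a9 among those of T cells, monocytes and neutrophils. Of the sum for T, NK and B cells, 205, 103 and 112 CPM in cortex and 149, 149 and 116 CPM in hippocampus, nearly all was Cd79b (202, 101 and 112 CPM in cortex and 148, 148 and 114 CPM in hippocampus). In sorted bulk samples, fewer cells of a type and less RNA per cell cannot be told apart.

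Libraries stood apart along transcript length. Of the 12217 genes tested, 12040 (98.6%) had an annotated transcript, and the median log2 deviation of genes whose longest transcript is under 1 kb was 0.55 in cortex 1 and 0.23 in hippocampus 2, against −0.33 to −0.09 in the other 4 libraries. For genes of 4 to 8 kb it was −0.35 in cortex 1, −0.13 in hippocampus 2 and 0.08 to 0.23 in the others. The tilt was steeper in cortex 1 than in hippocampus 2, and in the contrast 176 of the 751 shortest genes (23.4%) lay higher in hippocampus, against 53.8% of genes of 4 to 8 kb and 47.1% of all tested genes. With both libraries left out the share among the shortest genes was 37.4%, and the fit without that pair is given beside each gene group below.

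**Figure D1:**
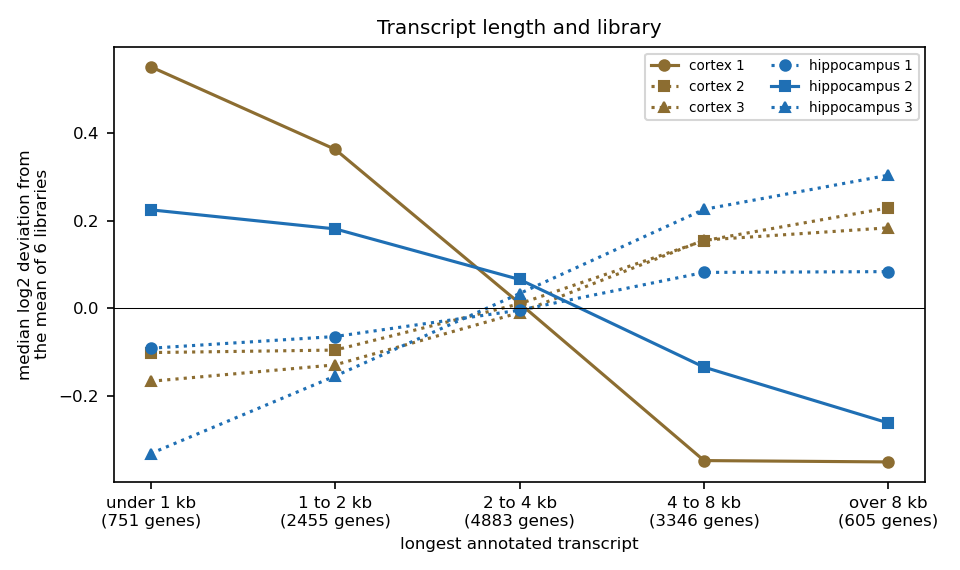
Median log2 deviation of each library from the mean of the 6 libraries (vertical axis) for genes grouped by the length of their longest annotated transcript (horizontal axis, kb, with the number of genes). Cortex 1 runs from 0.55 to −0.35 and hippocampus 2 from 0.23 to −0.26 (solid lines), while the other 4 libraries (dotted) lie below 0 at the left and above it at the right.

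No gene passed the test between hippocampus and cortex. In edgeR's quasi-likelihood test with Benjamini-Hochberg adjustment 0 of 12217 genes were called (0.00%), and every adjusted p was 1. At an unadjusted p under 0.05 there were 124 genes (1.01% of those tested), 82 higher in hippocampus (0.671%) and 42 lower (0.344%). limma-voom called 0 genes, with 188 at an unadjusted p under 0.05, and DESeq2 called 5 of 12148 (0.0412%), described with the rare transcripts below. The log2 differences were centred near 0, with a median of −0.02, quartiles at −0.24 and 0.21, and 5th and 95th percentiles at −0.91 and 0.92.

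Correlations between libraries were similar within and across the regions. Across the tested genes, which are not independent of each other, Pearson's r of log2 CPM between libraries of one region was 0.876 to 0.920 (mean 0.904), and between hippocampus and cortex libraries 0.892 to 0.928 (mean 0.909). Cortex 1 and hippocampus 2, which share the tilt towards short transcripts, correlated at 0.921. That did not set the pair apart, since hippocampus 2 correlated at 0.920 with both cortex 2 and hippocampus 3. The libraries did not overlap for 817 genes (6.69%), of which 444 lay wholly above cortex in hippocampus (3.63%) and 373 wholly below (3.05%). The precision differed with abundance. Among 7630 genes at a mean of 20 CPM or more, the median SE of the log2 difference was 0.35 and the 95% interval stayed within a 2-fold difference either way for 4260 (55.8%), whereas below 20 CPM the median SE was 1.16 and 8 of 4587 genes (0.174%) were bounded that tightly. Over all tested genes 4268 (34.9%) were bounded within 2-fold.

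**Figure D2:**
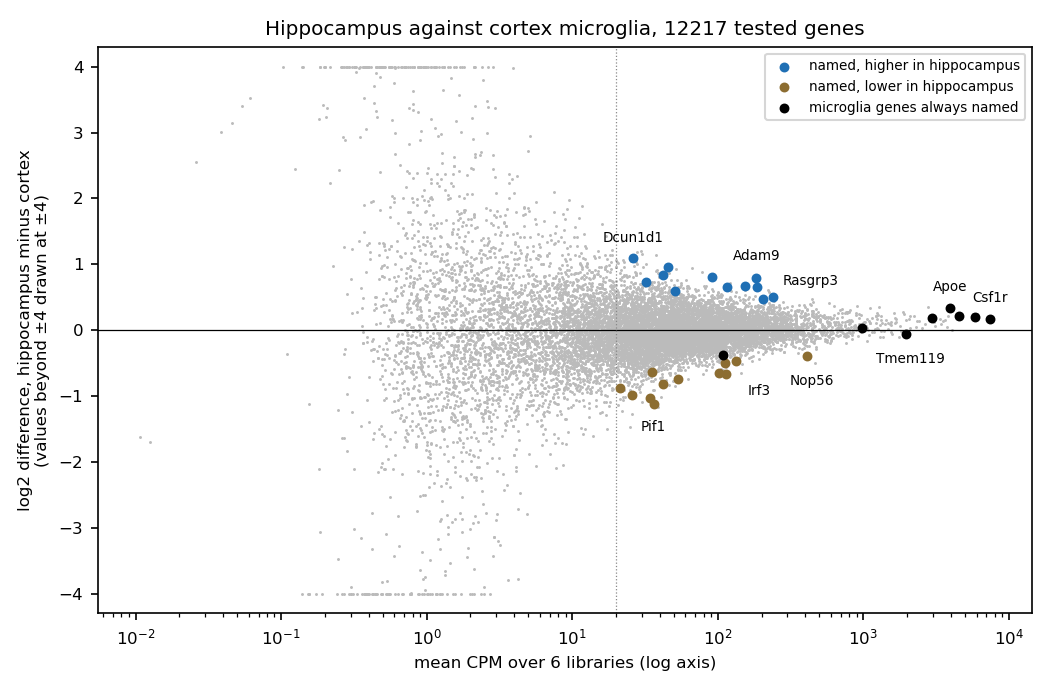
Log2 difference of hippocampus minus cortex (vertical axis, values beyond ±4 drawn at the edge) against mean CPM over the 6 libraries (horizontal log axis) for 12217 tested genes in grey, with the 12 named genes each way at 20 CPM or more in blue and brown and 8 microglia genes in black. The spread narrows to the right of the dotted line at 20 CPM, and the named genes lie at its upper and lower rim.

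Among genes at 20 CPM or more, 250 lay wholly above cortex (3.28%) and 187 wholly below (2.45%), and the 12 each way with the smallest p are described here; since they were picked for not overlapping, that is no further evidence. Adam9, a membrane-anchored metalloprotease that sheds surface proteins (chr8:24949611-25016927, GRCm38), was at 106, 132 and 167 CPM in cortex and 232, 193 and 275 CPM in hippocampus. Means were 233 ± 40.9 and 135 ± 30.9 CPM (SD, n = 3), a log2 difference of 0.79 (SE 0.23, 95% interval 0.29 to 1.29). The lowest hippocampus library exceeded the highest cortex library by a small margin only. Pdha1, the catalytic alpha subunit of pyruvate dehydrogenase that passes pyruvate into the mitochondrial citric acid cycle (chrX:160122209-160138413), was at 79.5, 82.1 and 105 CPM in cortex and 138, 152 and 133 CPM in hippocampus (log2 difference 0.66, SE 0.23). Its exons overlap Map3k15 on the other strand by 425 bases, and the library kit does not mark strand.

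On the same side, Traf6, the ubiquitin ligase that carries Toll-like and IL-1 receptor signals to NF-kB, was at 25.2, 33.3 and 33.5 CPM in cortex and 89.2, 34.9 and 55.6 CPM in hippocampus, with hippocampus 1 far above the rest and hippocampus 2 just above the cortex range (log2 difference 0.96, SE 0.40). S1pr2, a receptor for the lipid sphingosine 1-phosphate, was at 35.9, 23.1 and 31.4 CPM in cortex and 59.3, 47.8 and 53.9 CPM in hippocampus (0.83, SE 0.33). Mapk9, the kinase JNK2, was at 43.9, 68.1 and 87.9 CPM in cortex and 131, 90.1 and 129 CPM in hippocampus (0.81, SE 0.32), where hippocampus 2 and cortex 3 nearly met. Rasgrp3, an activator of Ras, reached 275, 279.9 and 284 CPM in hippocampus, a narrow range, against a wide one of 150.4, 191 and 254 CPM in cortex (log2 difference 0.50, SE 0.21; 0.33 without the pair cortex 1 and hippocampus 2).

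Ap3d1, a subunit of the AP-3 coat that sends cargo to lysosomes, was at 102, 122 and 131 CPM in cortex and 202, 147 and 214 CPM in hippocampus (log2 difference 0.67, SE 0.28). Rabgef1, the exchange factor that activates RAB5 on early endosomes, lay at 24.5, 26.5 and 21.5 CPM in cortex and 38.7, 42.2 and 40.03 CPM in hippocampus, tight within each region and apart between them (0.74, SE 0.31). Dcun1d1, which helps attach NEDD8 to cullins, had the widest log2 difference of the 12 at 1.09 (SE 0.42), from 14.2, 19.3 and 16.7 CPM in cortex and 42.5, 28.9 and 35.9 CPM in hippocampus. The remaining 3 were Hbp1, a transcriptional repressor (0.65), Cryzl1, a quinone oxidoreductase-like protein (0.60), and Ctage5, which acts in export from the endoplasmic reticulum (0.48). Hbp1, Cryzl1 and Dcun1d1 have exons that overlap an opposite-strand gene, so part of their counts may be that gene's.

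Lower in hippocampus, with the smallest p of the 12 on that side, was Irf3, the transcription factor that switches on type I interferon genes after viral nucleic acid is sensed (chr7:44997648-45002848). It was at 156, 122 and 142 CPM in cortex and 92.8, 93.2 and 79.7 CPM in hippocampus, with means of 88.6 ± 7.64 and 140.03 ± 17.4 CPM (SD, n = 3) and a log2 difference of −0.66 (SE 0.21, 95% interval −1.11 to −0.21). The highest hippocampus library stayed well below the lowest cortex library. Nop56, a core protein of the particles that guide methylation of ribosomal RNA, was at 501, 456 and 449 CPM in cortex and 338, 333 and 396 CPM in hippocampus (−0.40, SE 0.18). Snhg5, a host transcript of small nucleolar RNAs, was at 41.4, 47.5 and 39.2 CPM in cortex and 22.6, 28.1 and 31.9 CPM in hippocampus (−0.63, SE 0.28).

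Qtrt1, which inserts queuine into transfer RNA, was at 71.1, 46.1 and 44.7 CPM in cortex and 30.3, 35.1 and 26.5 CPM in hippocampus (log2 difference −0.82, SE 0.31), and Dus3l, which makes dihydrouridine, at 128, 127 and 138 CPM in cortex and 77.3, 98.8 and 101 CPM in hippocampus (−0.50, SE 0.19). In both, cortex exceeded hippocampus in every library. Taok2, a kinase upstream of stress-activated MAP kinases, was at 95.8, 131 and 151 CPM in cortex and 89.3, 58.8 and 91.6 CPM in hippocampus (−0.65, SE 0.26), so that cortex 1 and hippocampus 3 almost met. Tnfaip1, an adaptor of a cullin ubiquitin ligase, was at 137, 165 and 167 CPM in cortex and 118, 111 and 110.1 CPM in hippocampus (−0.47, SE 0.20). Vamp1, a vesicle fusion protein, was at 32.7, 35.01 and 35.00 CPM in cortex and 18.2, 11.9 and 21.6 CPM in hippocampus (−0.99, SE 0.38), and Tha1, a threonine aldolase, at 29.02, 25.2 and 28.3 CPM in cortex and 13.2, 17.5 and 14.4 CPM in hippocampus (−0.87, SE 0.36). Wbscr16 (−1.02), Mthfsd (−0.74) and the DNA helicase Pif1 (−1.12, SE 0.52) completed the 12. The 95% intervals of Pif1 (−2.25 to 0.016) and Nop56 (−0.80 to 0.003) included 0. Exons of Wbscr16 and Nop56 overlap an opposite-strand gene, for Nop56 by 5 bases. Cortex 2 and hippocampus 1 lay next to each other for Pif1, at 36.2 and 34.99 CPM.

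**Figure D3:**
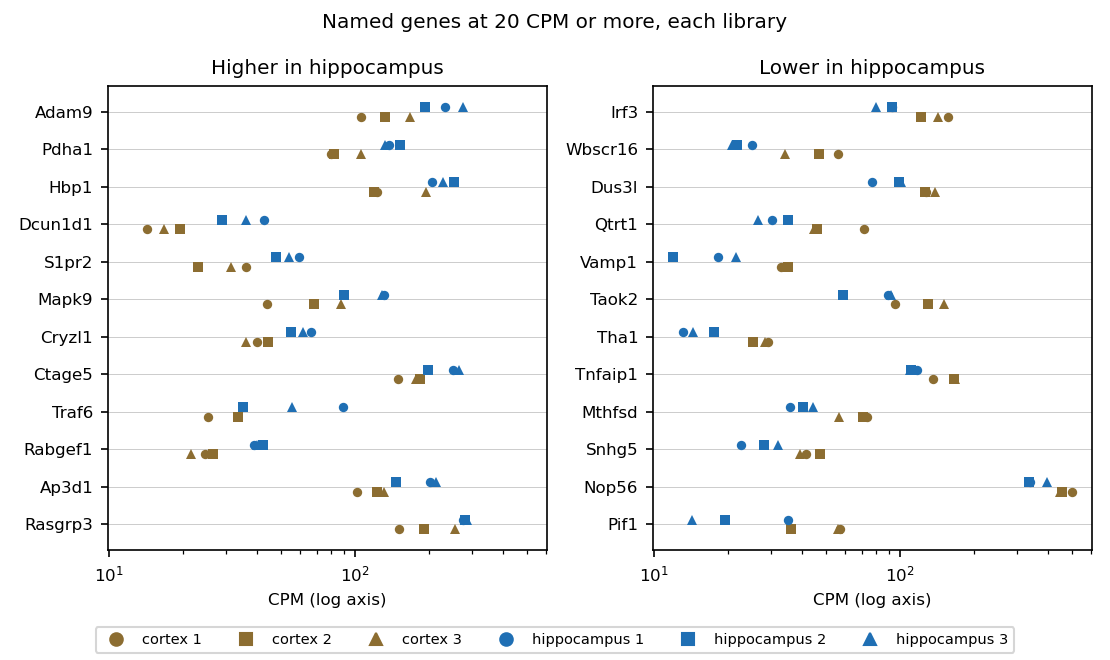
CPM of each library (horizontal log axis; brown for cortex, blue for hippocampus, symbol for the library number) for the 12 genes higher and the 12 lower in hippocampus with the smallest p among non-overlapping genes at 20 CPM or more. Groups are well apart for Irf3 (highest hippocampus value 93.2 CPM, lowest cortex value 122 CPM) and nearly touch for Pif1 and Traf6.

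Rare transcripts gave the widest ratios and the least certain ones. Eid3, an inhibitor of transcriptional coactivators, had 18, 43 and 18 counts in hippocampus and 0 in each cortex library. Its hippocampus mean was 30.8 times a floor of 3 counts over the 3 cortex libraries. Ratios to such a floor leave out the spread between libraries and are not lower bounds. The fit gave Eid3 a log2 difference of 7.70 (SE 2.07, 95% interval 3.13 to 12.3). Fbxl8, an F-box protein, was at 0, 0.0647 and 0.418 CPM in cortex and 6.75, 3.69 and 3.50 CPM in hippocampus (log2 difference 4.85, SE 1.23). Fn3k, a kinase that repairs glycated proteins, had 60, 2 and 36 counts against none, a mean of 39.5 times that floor, but did not pass the filter on low counts. In the other direction Lpcat4, a lysophospholipid acyltransferase, had 88, 48 and 21 counts in cortex and none in hippocampus. Mmp17, a membrane-type metalloprotease, had 63, 2 and 40, and Rapgef3, a cAMP-activated exchange factor, 76, 12 and 16, also against none. Cortex means were 44.2, 33.5 and 30.3 times the same floor over the 3 hippocampus libraries. The 95% intervals of the log2 difference were −13.9 to −2.90, −13.3 to −2.75 and −14.4 to −1.33. Exons of Rapgef3 overlap opposite-strand transcripts. Prodh, proline dehydrogenase, was at 11.9, 26.1 and 24.7 CPM in cortex and 7.06, 8.50 and 5.05 CPM in hippocampus (−1.60, SE 0.50).

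Genes counted in every library of one region and in none of the other were as many on each side: 26 in hippocampus, of which 12 were tested, and 26 in cortex, of which 8 were. In single libraries 3 counts correspond to 0.194 to 0.316 CPM. Eid3 had 27 counts in striatum and 89 in cerebellum, and Lpcat4 had 25 and 20. Fbxl8 was also among the 5 genes called by DESeq2, with an adjusted p of 0.0115 there against 1 in edgeR's quasi-likelihood test. Cd24a, Ctf1 and Cyfip2, also called there, had no count in cortex and were counted in 1 or 2 hippocampus libraries. Cux2, a transcription factor of upper-layer cortical neurons, had no count in cortex microglia and 3.16, 0.369 and 2.25 CPM in hippocampus.

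Gene lists were described by how many members lay higher or lower and by their median, beside 47.1% higher, 52.9% lower and a median of −0.02 over all tested genes. No member of any list passed the test, and the lists were not tested as sets. For each list the lowest and highest median with 1 of the 6 libraries left out is given as a leave-out range, with the library that gave each end; for all tested genes it was −0.03 without hippocampus 2 to 0.02 without cortex 1. Exons of Csf1r, Cx3cr1, Serinc3, Ctsb, Atg14, Fcgr2b, Usp18, Hmgcs1, Fbxl5 and Ctsz overlap a gene on the other strand and those of Ctsd, Spp1, P2rx7, Trf and Cd74 one on their own strand, so part of their counts may be that gene's. Of the genes of the homeostatic microglial state, 20 of 29 lay higher in hippocampus (median log2 difference 0.07), 24 of 29 without the pair cortex 1 and hippocampus 2 (median 0.10). Leave-out medians ran from 0.05 without cortex 3 to 0.16 without cortex 1. Their mean log2 deviation per library was −0.04, −0.03 and −0.09 in cortex and 0.10, 0.07 and −0.01 in hippocampus. The groups did not overlap, but hippocampus 3 and cortex 2 lay next to each other. All tested genes also deviated by library, by −0.04, 0.02 and 0.003 in cortex and −0.08, 0.06 and 0.04 in hippocampus. Set against these values, the regions overlapped for the homeostatic list, with hippocampus 3 below cortex 1 and cortex 2. Within 2-fold 27 of 29 members were bounded, against 55.8% of all tested genes at 20 CPM or more. P2ry12, whose values are above (0.22, SE 0.17), and P2ry13, another ADP receptor (1664, 1966 and 1628 CPM in cortex and 2038, 2199 and 2008 CPM in hippocampus; 0.25, SE 0.16), were the 2 of 29 members whose libraries did not overlap, where 3.63% of all tested genes lay wholly above cortex.

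Log2 differences of individual identity genes were small, with 95% intervals as wide as −0.78 to 0.66 for Tmem119. Csf1r, the survival receptor, was at 5691, 7173 and 7918 CPM in cortex and 8202, 7290.4 and 7972 CPM in hippocampus (0.18, SE 0.15), with only cortex 1 clearly below the others. Cx3cr1, the receptor for neuronal fractalkine, was at 3065, 3463 and 1769 CPM in cortex and 3599, 3360.4 and 2512 CPM in hippocampus (0.19, SE 0.27), and its direction turned without cortex 3, which was the lowest library (−0.05). For Tmem119 the difference was −0.06 (SE 0.33), and it was 0.16 without the pair. Fcrls, a scavenger receptor-like protein, differed by 0.16, SE 0.14. Serinc3, a membrane protein, had 3350.2, 3495 and 3821 CPM in cortex and 4152, 4298 and 3901 CPM in hippocampus, without overlap (0.21, SE 0.13). C1qb and C1qc, chains of the first complement component, differed by 0.04 and 0.00 (SE 0.21 and 0.20), and Trem2, a lipid-sensing receptor, by 0.04 (SE 0.19). The directions of these last 3 changed when single libraries were left out, for example Trem2 to −0.12 without hippocampus 2.

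**Figure D4:**
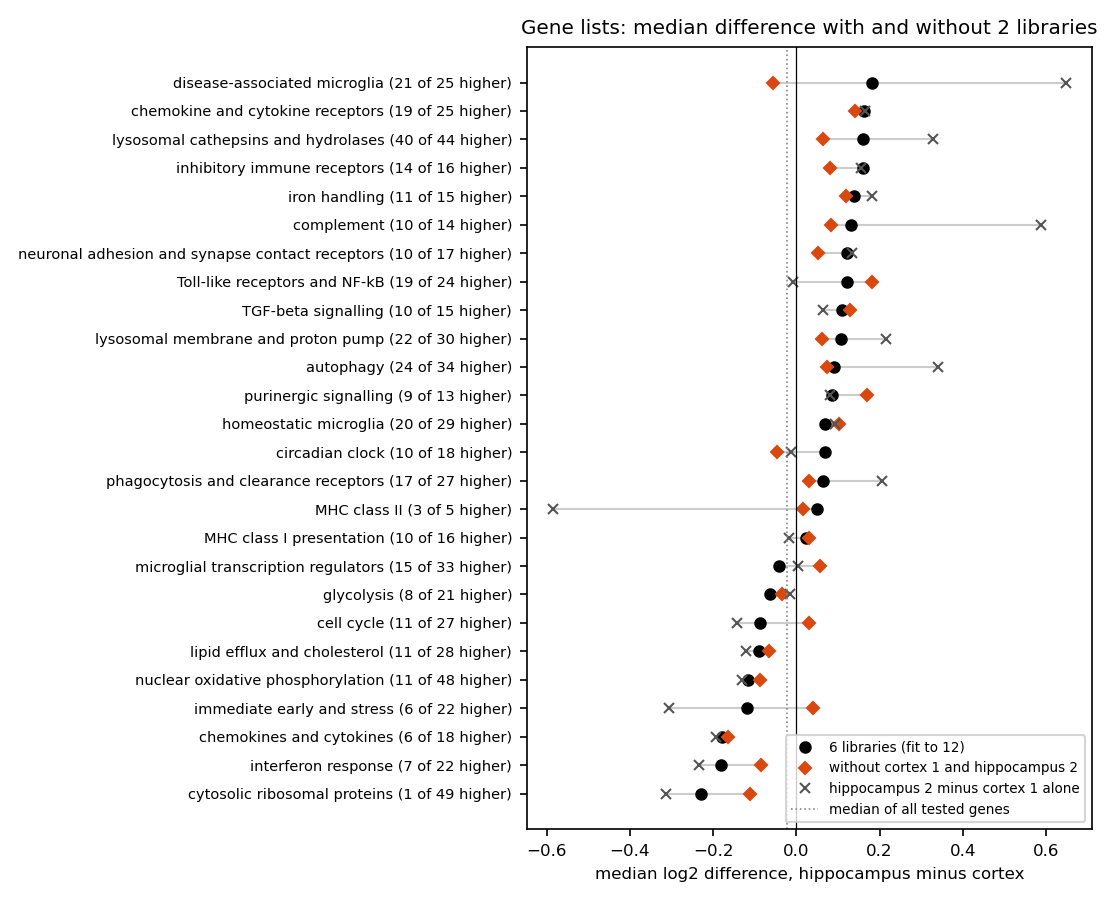
Median log2 difference of hippocampus minus cortex (horizontal axis) for gene lists of microglial states and pathways (vertical axis, with members higher of those tested) from all 6 libraries (black circles), without cortex 1 and hippocampus 2 (orange diamonds) and from those 2 libraries alone (grey crosses). The disease-associated list moves from 0.18 to −0.05 without the pair and lies at 0.65 within it, while the 3 symbols of the receptor list lie between 0.14 and 0.17.

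Genes of the disease-associated state, which microglia switch on around plaques and in ageing, varied more between libraries than between regions. Of 25 members 21 lay higher in hippocampus (median 0.18), but the mean deviation per library was −0.47, −0.79 and 0.80 in cortex and −0.46, 0.75 and 0.17 in hippocampus, so that cortex 3 and hippocampus 2 were high and the other 4 lower. Spp1, the secreted protein osteopontin, was at 23.02, 21.4 and 539 CPM in cortex and 29.8, 553 and 161 CPM in hippocampus. Clec7a, the beta-glucan receptor dectin-1, was at 2.73, 1.16 and 51.7 CPM in cortex and 21.2, 60.3 and 29.5 CPM in hippocampus, and Apoe, the lipid carrier, at 2887, 2147 and 5459 CPM in cortex and 3114, 6026 and 4159 CPM in hippocampus. In each of the 3 the highest cortex library was cortex 3 and the highest hippocampus library hippocampus 2, and the regions overlapped. The log2 differences were 0.35, SE 1.27 for Spp1, 1.00, SE 1.13 for Clec7a and 0.34, SE 0.36 for Apoe.

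Without the pair cortex 1 and hippocampus 2, 6 of 25 disease-associated genes lay higher in the fit (median −0.05), with Apoe at −0.07 and Lyz2, lysozyme, at −0.22 instead of 0.42. As a difference of mean log2 CPM over the same 4 libraries, 15 of 25 lay higher (median 0.02). Hippocampus 2 exceeded cortex 1 in 24 of 25 (median 0.65). The leave-out range was −0.08 without hippocampus 2 to 0.56 without cortex 3. The highest markers of choroid plexus, Ttr at 0, 14.9 and 75.5 CPM in cortex and 0, 43.04 and 0 CPM in hippocampus and Enpp2 at 0, 5.18 and 36.6 CPM in cortex and 0, 8.87 and 1.17 CPM in hippocampus, were likewise highest in cortex 3 and hippocampus 2, and their part in the list's level was not tested. Of 13 tested genes of border-associated macrophages 5 lay higher (median −0.07; 3 of 13, median −0.14, without the pair), with deviations of −0.97, −0.73 and 1.05 in cortex and 0.65, −0.55 and 0.55 in hippocampus, which again placed cortex 3 highest. Its direction turned with single libraries and with the method: the leave-out range was −0.30 without cortex 1 to 0.52 without cortex 3, limma-voom had 11 of 13 higher (median 0.33) and the replicate block 11 of 13 (median 0.16). The mean deviation was likewise higher in hippocampus than in cortex.

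**Figure D5:**
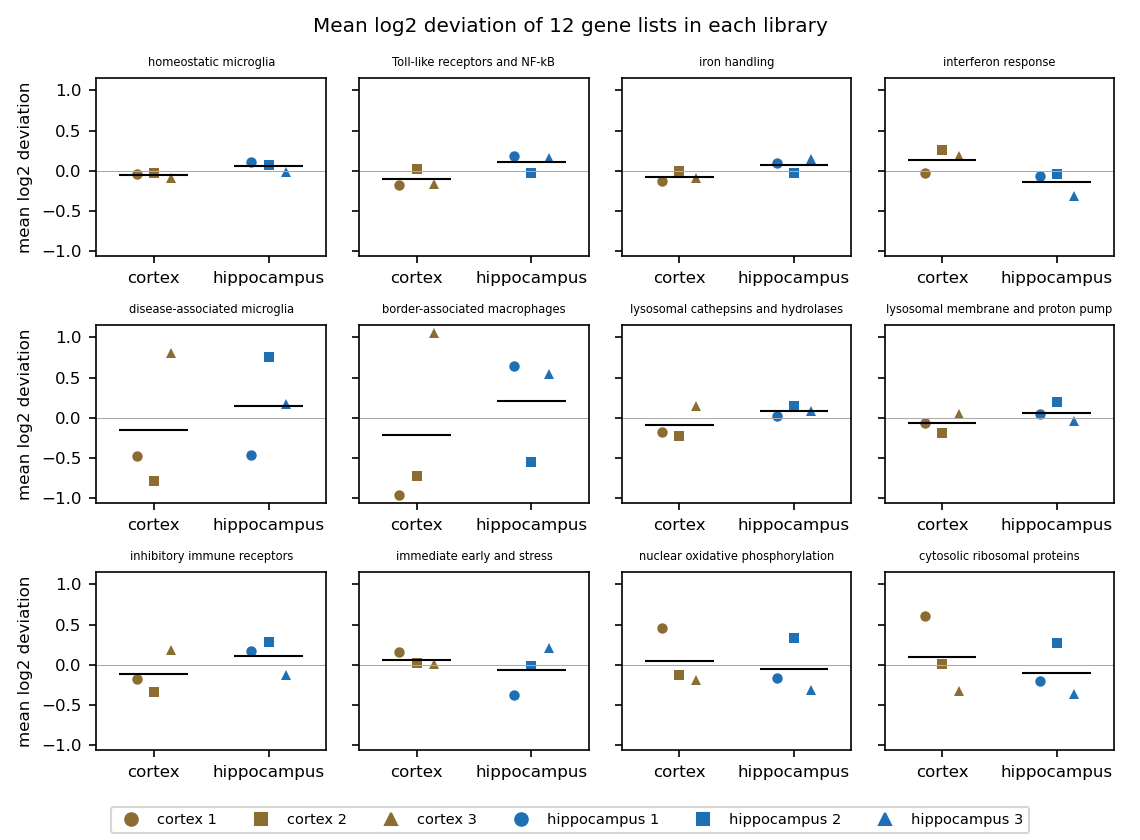
Mean log2 deviation from the 6-library mean (vertical axis) of 12 gene lists in each library (symbols by library number, brown cortex, blue hippocampus), with the mean of each region as a line. Disease-associated genes range from −0.79 to 0.80 within cortex alone, whereas homeostatic genes stay between −0.09 and 0.10 in all 6 libraries.

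Lysosomal genes, the degradative compartment's enzymes, membrane proteins and proton pump, lay higher in hippocampus in 62 of 74 cases (median 0.14), and in 51 of 74 without the pair (median 0.06). Its leave-out range was 0.07 without hippocampus 2 to 0.23 without cortex 3. Of 44 cathepsins and hydrolases 40 lay higher (median 0.16; 31 of 44, median 0.06, without the pair). The leave-out range was 0.08 without cortex 2 to 0.26 without cortex 3. Of 30 membrane and pump proteins 22 did (0.11; 20 of 30, 0.06, without the pair). Leave-out medians ran from 0.04 without hippocampus 2 to 0.18 without cortex 3. The 2 lists' deviations per library were −0.18, −0.23 and 0.15 in cortex and 0.02, 0.15 and 0.09 in hippocampus for the enzymes and −0.06, −0.19 and 0.05 in cortex and 0.04, 0.20 and −0.05 in hippocampus for membrane and pump. Cortex 3 lay level with the highest hippocampus library for the enzymes, and the regions overlapped in both lists. Of all 74 genes 66 were bounded within 2-fold, against 34.9% of all tested genes and 55.8% of those at 20 CPM or more. Wholly above cortex lay 4 and wholly below 1, near the shares over all tested genes (3.63% and 3.05%).

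Ctsd, the aspartic protease cathepsin D, was at 4795, 3807 and 8122 CPM in cortex and 5699.7, 8166 and 5937 CPM in hippocampus (0.24, SE 0.29; −0.04 without the pair). Ctsb, the cysteine protease cathepsin B, was at 4625, 3401 and 7593 CPM in cortex and 5080.1, 7749.9 and 5635 CPM in hippocampus (0.24, SE 0.29; −0.04), in the same order of libraries. These 2, with Cd63, Cd68 and Ctsz, are also in the disease-associated list (5 shared genes, 20% of that list and 6.76% of the lysosomal genes). More even were Psap, the precursor of saposins that help sphingolipid breakdown, at 1985, 1938 and 1919.9 CPM in cortex and 2063, 2546 and 2167 CPM in hippocampus without overlap (0.21, SE 0.14), and Atp6v1b2, a subunit of the proton pump, at 209.9, 232 and 255 CPM in cortex and 259.7, 297 and 288 CPM in hippocampus, also without overlap (0.28, SE 0.15). Gaa, which degrades glycogen, was at 164, 168 and 268 CPM in cortex and 310.4, 236 and 308 CPM in hippocampus (0.51, SE 0.29), with cortex 3 inside the hippocampus range. Lamp2, a membrane glycoprotein of lysosomes, was at 597, 714 and 1064 CPM in cortex and 981, 1111 and 962 CPM in hippocampus (0.36, SE 0.20), again overlapping through cortex 3.

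Many lysosomal promoters carry the letters CACGTG, the E-box bound by MiT/TFE factors, or its longer form TCACGTGA, which contains it. Both are palindromes, so that 1 search covers both strands. Of the 74 genes 59 matched a RefSeq promoter window of 250 bases before to 50 after the start (GRCm38.p6). CACGTG was in 18 of them (30.5%), against 1044 of 8737 tested genes with a window (11.95%) and 8.09% of all genes with one, and TCACGTGA in 8 (13.6%) against 203 (2.32%) and 1.13%. Lysosomal genes with CACGTG lay higher in hippocampus in 14 of 18 cases (median 0.15) and those without it in 33 of 41 (median 0.10). The promoters of 4 genes are shown because their expression spans the list, with the matched letters in capitals: Glb1, beta-galactosidase (chr9:114400828-114401127, plus strand), and Atp6v1a, the catalytic subunit of the proton pump (chr16:44139210-44139509, minus strand), both higher in hippocampus, Ctsd (chr7:142387778-142388077, minus strand), which overlapped between regions, and Arsa, arylsulfatase A (chr15:89477375-89477674, minus strand), which was lower.
Glb1: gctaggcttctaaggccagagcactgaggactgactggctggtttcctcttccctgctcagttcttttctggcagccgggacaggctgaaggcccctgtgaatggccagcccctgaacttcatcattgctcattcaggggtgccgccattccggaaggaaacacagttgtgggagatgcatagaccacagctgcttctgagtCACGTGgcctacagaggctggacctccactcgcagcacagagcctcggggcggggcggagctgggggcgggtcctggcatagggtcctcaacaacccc
Atp6v1a: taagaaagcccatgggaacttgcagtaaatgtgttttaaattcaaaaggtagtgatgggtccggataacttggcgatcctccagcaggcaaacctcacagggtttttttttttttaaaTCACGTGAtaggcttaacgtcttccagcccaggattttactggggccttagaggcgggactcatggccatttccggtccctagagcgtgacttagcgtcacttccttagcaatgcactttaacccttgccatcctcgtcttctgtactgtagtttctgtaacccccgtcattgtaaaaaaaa
Ctsd: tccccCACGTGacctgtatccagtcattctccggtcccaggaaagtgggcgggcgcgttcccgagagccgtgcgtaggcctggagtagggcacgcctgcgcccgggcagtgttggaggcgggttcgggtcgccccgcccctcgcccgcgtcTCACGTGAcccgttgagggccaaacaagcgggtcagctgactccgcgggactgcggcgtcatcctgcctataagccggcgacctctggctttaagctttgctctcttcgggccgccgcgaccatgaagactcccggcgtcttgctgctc
Arsa: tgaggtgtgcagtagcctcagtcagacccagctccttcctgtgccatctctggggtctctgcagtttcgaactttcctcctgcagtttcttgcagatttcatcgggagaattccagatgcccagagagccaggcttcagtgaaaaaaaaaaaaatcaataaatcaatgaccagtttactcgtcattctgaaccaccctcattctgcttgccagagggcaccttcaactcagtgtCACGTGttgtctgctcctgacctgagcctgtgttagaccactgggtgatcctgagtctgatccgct

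The genes shown were picked to span the list, so their directions are no result about genes with a matching promoter. Glb1 was at 90.3, 99.7 and 116 CPM in cortex and 142, 140.3 and 138 CPM in hippocampus (log2 difference 0.45, SE 0.24; 0.37 without the pair), with a tight hippocampus group above all cortex libraries. Atp6v1a was at 64.4, 83.99 and 127 CPM in cortex and 138, 146 and 166 CPM in hippocampus (0.71, SE 0.48), also without overlap, although cortex 3 came near. Arsa, which removes sulfate from myelin lipids, was at 93.1, 62.6 and 80.4 CPM in cortex and 53.9, 57.7 and 61.2 CPM in hippocampus (−0.45, SE 0.25), wholly below cortex. The match is a match of letters only, and Arsa shares 420 exon bases with the opposite-strand gene C230037L18Rik, while Glb1 shares 165 with Tmppe on its own strand.

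Autophagy, which delivers cytoplasm to lysosomes, had 24 of 34 genes higher (median 0.09; 20 of 34, median 0.07, without the pair). Its leave-out range was 0.02 without hippocampus 2 to 0.23 without cortex 3. Pik3c3, the lipid kinase VPS34 that starts autophagosomes, was at 32.1, 25.04 and 20.6 CPM in cortex and 35.8, 49.4 and 38.7 CPM in hippocampus without overlap (0.67, SE 0.33). Its partner Atg14 was at 31.8, 25.7 and 49.8 CPM in cortex and 63.9, 41.01 and 49.4 CPM in hippocampus (0.52, SE 0.33), where cortex 3 lay inside the hippocampus range. Tfeb and Tfe3, the factors that bind the E-box above, differed by 0.04, SE 0.33 and 0.02, SE 0.19. Phagocytic receptors and their partners were higher in 17 of 27 cases (median 0.06; 16 of 27, median 0.03, without the pair). The leave-out range was 0.02 without hippocampus 2 to 0.20 without cortex 3. Fcgr2b, the inhibitory Fc receptor, was at 150.02, 142 and 176 CPM in cortex and 198, 212 and 195 CPM in hippocampus (0.37, SE 0.24). Itgb5, an integrin chain used in clearance of dying cells, was at 1937, 1732 and 1888 CPM in cortex and 2019.5, 2105 and 2075 CPM in hippocampus (0.16, SE 0.14); neither overlapped. Complement genes were higher in 10 of 14 cases (median 0.13; 11 of 14, median 0.08, without the pair; leave-out range 0.004 without hippocampus 2 to 0.21 without cortex 3), among them Itgb2, the beta chain of complement receptor 3, at 309.8, 383 and 324 CPM in cortex and 404, 427 and 412 CPM in hippocampus without overlap (0.29, SE 0.22).

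The medians of immune ligands and of their receptors had opposite signs. Of 18 chemokines and cytokines 12 lay lower in hippocampus (median −0.18; 14 of 18, median −0.16, without the pair). The ligands' leave-out range was −0.30 without cortex 2 to −0.04 without hippocampus 1, and in that last fit 9 of 18 lay lower. Ccl2, which attracts monocytes, was at 32.1, 31.6 and 25.7 CPM in cortex and 11.9, 14.1 and 18.3 CPM in hippocampus, a clear gap with a wide error (−1.01, SE 0.98). Osm, oncostatin M, was at 32.8, 33.7 and 30.3 CPM in cortex and 26.7, 21.2 and 20.3 CPM in hippocampus, also without overlap (−0.51, SE 0.59). Il6 went the other way at very low levels, 0.760, 1.81 and 1.46 CPM in cortex and 2.74, 2.31 and 2.95 CPM in hippocampus (0.98, SE 1.34). Their receptors were higher in 19 of 25 cases (median 0.16; 18 of 25, median 0.14, without the pair, and 0.17 between hippocampus 2 and cortex 1). The leave-out range was 0.03 without cortex 1 to 0.21 without cortex 2. Il10ra, a chain of the receptor for the anti-inflammatory interleukin 10, was at 385, 426 and 413 CPM in cortex and 575, 433 and 465 CPM in hippocampus (0.27, SE 0.15). Ifngr1, a chain of the interferon gamma receptor, was at 1089, 1020.3 and 1104 CPM in cortex and 1191, 1274 and 1201 CPM in hippocampus (0.19, SE 0.14). Neither overlapped between regions. As lists, however, ligands and receptors both overlapped between regions in their mean deviation per library. For ligands it was 0.05, 0.01 and 0.20 in cortex and −0.26, −0.03 and 0.03 in hippocampus. For receptors it was −0.41, 0.21 and −0.22 in cortex and 0.19, −0.04 and 0.26 in hippocampus. Whether ligands and receptors differ in their regional difference was not tested.

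Sensing of microbial products gave a like count. Of the Toll-like receptor and NF-kB genes 19 of 24 lay higher (median 0.12; 18 of 24, median 0.18, without the pair), but between hippocampus 2 and cortex 1 alone 11 of 24 did (median −0.01), and the leave-out range was 0.05 without cortex 1 to 0.15 without hippocampus 2. Besides Traf6, Tlr1 was at 85.99, 111 and 125 CPM in cortex and 149.6, 118 and 142 CPM in hippocampus (0.34, SE 0.22) and Tlr4, the receptor for endotoxin, at 42.3, 114 and 163 CPM in cortex and 173, 91.2 and 156 CPM in hippocampus (0.40, SE 0.40), both overlapping, with the lowest value of Tlr4 in cortex 1. TGF-beta signalling genes were higher in 10 of 15 cases (median 0.11; 12 of 15, median 0.13, without the pair), but the median was near 0 in several other fits, with a leave-out range of 0.005 without cortex 1 to 0.30 without hippocampus 2, 0.01 with the replicate block and 0.01 after correction for transcript length. Smad4, the shared SMAD that takes the signal to the nucleus, was at 62.8, 83.9 and 60.3 CPM in cortex and 104, 90.98 and 113 CPM in hippocampus without overlap (0.58, SE 0.27). Tgfbr2, the ligand-binding receptor, was at 208, 405 and 402 CPM in cortex and 476, 348 and 499 CPM in hippocampus (0.38, SE 0.32). Inhibitory immune receptors and their phosphatases were higher in 14 of 16 cases (median 0.16; 11 of 16, median 0.08, without the pair; leave-out range 0.09 without cortex 2 to 0.23 without hippocampus 3), with Lair1, a collagen receptor, at 404, 418 and 453 CPM in cortex and 516, 546 and 524 CPM in hippocampus, again without overlap (0.31, SE 0.15). Purine signalling genes were higher in 9 of 13 cases (median 0.08; 10 of 13, median 0.17, without the pair; leave-out range 0.09 without cortex 2 to 0.21 without hippocampus 3), among them P2rx7, an ATP-gated channel, at 167, 277 and 265 CPM in cortex and 340.4, 234 and 305 CPM in hippocampus (0.31, SE 0.23).

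Interferon response genes lay lower in hippocampus in 15 of 22 cases (median −0.18; 14 of 22, median −0.08, without the pair). Leave-out medians ran from −0.27 without hippocampus 2 to −0.08 without cortex 3, and the deviation per library was −0.03, 0.26 and 0.19 in cortex and −0.07, −0.04 and −0.31 in hippocampus. The groups of libraries did not overlap, though cortex 1 and hippocampus 2 lay side by side. Set against the deviations of all tested genes, cortex 1 and hippocampus 1 nearly met. Most members were near the limit of precision, with 4 of 22 bounded within 2-fold. Usp18, which dampens interferon receptor signalling, was at 13.5, 8.09 and 13.8 CPM in cortex and 7.91, 5.36 and 4.27 CPM in hippocampus without overlap (−1.01, SE 0.95). Ifit3, an antiviral RNA-binding protein, was at 13.8, 17.7 and 2.51 CPM in cortex and 9.59, 3.69 and 5.05 CPM in hippocampus (−0.89, SE 0.89). Of the genes of MHC class I presentation 10 of 16 lay higher (median 0.02; 10 of 16, median 0.03, without the pair). Leave-out medians ran from −0.05 without cortex 2 to 0.06 without cortex 3. Of the MHC class II genes 3 of 5 lay higher (median 0.05; 3 of 5, median 0.02, without the pair), with a leave-out range of −0.17 without hippocampus 1 to 0.33 without cortex 1 and a median of −0.12 with at least 50 counts on average. Cd74, the invariant chain, was at 104, 127 and 136 CPM in cortex and 126, 61.97 and 95.1 CPM in hippocampus (−0.37, SE 0.36), lowest in hippocampus 2.

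Immediate early and stress genes, which also respond to handling during cell isolation, were lower in 16 of 22 cases (median −0.12), but without the pair 12 of 22 were higher (median 0.04), and the leave-out range was −0.21 without hippocampus 3 to 0.02 without cortex 1. Egr1, a zinc finger factor of early transcriptional responses, was at 26.5, 13.8 and 34.1 CPM in cortex and 9.17, 7.57 and 16.6 CPM in hippocampus (−1.16, SE 0.64), and Jun at 239, 192 and 232 CPM in cortex and 167, 215 and 180.4 CPM in hippocampus (−0.24, SE 0.26). Only 1 cortex library of Egr1, cortex 2, fell inside the hippocampus range. Hippocampus 1 was lowest for the list as a whole (0.16, 0.02 and 0.01 in cortex and −0.38, −0.01 and 0.21 in hippocampus).

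Genes with short transcripts were described beside the length tilt. Of 49 genes of cytosolic ribosomal proteins 48 lay lower in hippocampus (median −0.23), with a median longest transcript of 937 bases. Their deviations were 0.61, 0.01 and −0.32 in cortex and −0.20, 0.27 and −0.37 in hippocampus, highest in cortex 1 and then hippocampus 2, the same pair as for short transcripts in general, and the regions overlapped. Without the pair 40 of 49 were lower, with a median of −0.11. Without cortex 1 alone the direction turned, with 35 of 49 higher (leave-out range −0.44 without hippocampus 2 to 0.09 without cortex 1), and after correction for transcript length 12 of 49 were higher (median −0.08). For Rpl8, a protein of the large subunit, values were 188, 155 and 86.2 CPM in cortex and 97.1, 134 and 104 CPM in hippocampus (−0.36, SE 0.27; −0.27 without the pair). Nuclear genes of oxidative phosphorylation, the respiratory chain and ATP synthase, were lower in 37 of 48 cases (median −0.12, median length 983 bases; 34 of 48, −0.09, without the pair). Here too the direction turned, with 42 of 48 higher without cortex 1 (leave-out range −0.34 without hippocampus 2 to 0.14 without cortex 1), 28 of 48 without hippocampus 3 (median 0.04) and 25 of 47 after correction for transcript length (median 0.03). Ndufb7, of complex I, was at 132, 65.8 and 76.4 CPM in cortex and 49.7, 98.6 and 63.5 CPM in hippocampus (−0.37, SE 0.36), and Sdha, the flavoprotein of complex II, at 256, 353 and 335 CPM in cortex and 319, 419 and 375 CPM in hippocampus (0.24, SE 0.18; 0.01 without the pair).

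Other metabolic groups lay on both sides of the overall median. Glycolysis genes were higher in 8 of 21 cases (median −0.06; 10 of 21, −0.03, without the pair; leave-out range −0.14 without hippocampus 2 to 0.07 without hippocampus 1), with Hk2, a hexokinase, at 102, 151 and 125 CPM in cortex and 108, 68.4 and 111 CPM in hippocampus (−0.39, SE 0.30). Of the genes of cholesterol synthesis and lipid efflux 11 of 28 were higher (median −0.09; 12 of 28, −0.06, without the pair; leave-out range −0.26 without cortex 3 to 0.04 without cortex 2), for example Hmgcs1, an early enzyme of the pathway, at 58.2, 114 and 70.5 CPM in cortex and 73.8, 44.7 and 78.9 CPM in hippocampus (−0.30, SE 0.32). Cell cycle genes were higher in 11 of 27 cases (median −0.09), and in 15 of 27 without the pair (median 0.03). Its leave-out range was −0.14 without cortex 2 to 0.07 without cortex 1. Iron handling genes were higher in 11 of 15 cases (median 0.14; 9 of 15, 0.12, without the pair). The leave-out range was 0.07 without cortex 1 to 0.16 without hippocampus 2. Fbxl5, the iron-sensing ubiquitin ligase subunit, was at 54.1, 65.9 and 78.9 CPM in cortex and 89.8, 84.97 and 97.8 CPM in hippocampus (0.46, SE 0.26). Trf, transferrin, was at 1294, 1168 and 1297 CPM in cortex and 1339, 1455 and 1377 CPM in hippocampus (0.15, SE 0.19). Both were without overlap. Slc40a1, the iron exporter ferroportin, was at 230.4, 271 and 513 CPM in cortex and 381, 412 and 423 CPM in hippocampus (0.26, SE 0.26), with cortex 3 above all hippocampus libraries.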

How the data were processed

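Counts per gene symbol, whole numbers for 23337 symbols in 12 libraries, were deposited by the authors in 1 table and used as deposited. The submitters' processing notes name HTSeq, Picard, STAR 2.5.3a and Trim Galore 0.4.3 and the genome build mm10, with tool settings, annotation and strand handling not given in the sources used here. Total counts were 9394829 to 14833340 in the 6 libraries compared. Counts were scaled by TMM, filtered with filterByExpr (minimum count 10, minimum total 15) and fitted in 1 edgeR 4.0.16 quasi-likelihood model (robust) of all 12 libraries with a mean per region; striatum and cerebellum add only to the estimate of spread. Benjamini-Hochberg adjustment covered all 12217 tested genes, at a threshold of 0.05. The SE is the log2 difference divided by the square root of F, and 95% intervals use the t quantile at the fit's degrees of freedom. The script was tested on simulated data. Per-library deviations use log2 CPM with a prior count of 2. Alternatives were DESeq2 1.42.0, limma-voom (limma 3.58.1), upper-quartile scaling, other filters, a length correction, the replicate block and fits that leave out libraries. Positions, lengths and exon overlaps come from GENCODE M21 basic (GRCm38, the build of mm10); 20892 symbols matched directly and 1898 by synonym. Promoters are RefSeq's.

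Named genes were the 12 higher and 12 lower with the smallest p among genes at 20 CPM or more whose libraries do not overlap, 3 and 3 below 20 CPM, the 10 genes of highest CPM (not corrected for length), up to 3 members of each list with the smallest p, 8 microglia genes, and up to 3 genes each way that were counted in 1 region only; predicted genes, RIKEN clones, ribosomal protein genes and pseudogenes were left out of the first 2 and the last. A few genes chosen this way are not reported here. Other list members were named for their role or to show the spread of a list, after their values were seen. The members and gene lists were chosen with earlier results of these data known.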

Additional observations from a re-analysis of the deposited data

How the results depend on the processing

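No gene was called under any alternative run except DESeq2, which called 5. The number of genes at an unadjusted p under 0.05, 124, was 188 with limma-voom, 248 without a filter on low counts, 52 with at least 50 counts on average, 299 without striatum 2, and 101 to 194 with 1 of the 6 libraries left out (194 without cortex 3). In a fit of only the 4 libraries left without the pair cortex 1 and hippocampus 2, chosen after seeing the data, it was 298. Of the 124, 82 were higher and 42 lower; the split was 77 and 60 after correction for transcript length and 45 and 53 without the pair. Genes whose libraries did not overlap, 817, were 1679 to 2209 with 1 library fewer and 3445 without the pair, where fewer libraries are left to overlap; genes bounded within 2-fold numbered 3042 to 3700 with 1 library fewer. Without the pair the log2 differences turned to −0.036 for Ctsd, −0.038 for Ctsb, −0.065 for Apoe and 0.16 for Tmem119, with the same values in the fit of only the 4 libraries. With single libraries left out, C1qc lay between −0.11 and 0.16, C1qb between −0.082 and 0.20, Trem2 between −0.12 and 0.18, Cx3cr1 between −0.049 and 0.38 and Tmem119 between −0.29 and 0.16. The cause was not tested. Same-numbered libraries' deviations correlated at −0.02, −0.12 and 0.09. With 3 libraries per region these values cannot decide whether pools of one number share mice. With the replicate block 117 genes had an unadjusted p under 0.05 and 0 were called. Of 646 list medians under alternatives 22 moved by more than the spread between libraries, for example the homeostatic median to 0.16 without cortex 1. Medians that turned sign are given beside each list whose median is reported, or lie within its leave-out range. Medians also turned sign for sex-linked genes and for markers of neurons, astrocytes and endothelial cells with pericytes. The same held for monocytes with neutrophils and for T, NK and B cells. The medians of these lists are not reported here. Differences were bounded least below 20 CPM, where the part of depth was not tested.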

Other observations

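Regulators of transcription in microglia lay on both sides, with 15 of 33 higher in hippocampus (median −0.04) and 18 of 33 without the pair cortex 1 and hippocampus 2 (median 0.06). Leave-out medians ran from −0.07 without hippocampus 1 to 0.13 without hippocampus 2. Mef2c, a factor that restrains microglial activation, was at 318, 652 and 691 CPM in cortex and 579.8, 478 and 738 CPM in hippocampus (0.11, SE 0.31). Irf8, required for the microglial lineage, was at 541, 478 and 528 CPM in cortex and 610.4, 607 and 534 CPM in hippocampus (0.18, SE 0.14). Eed, a subunit of the Polycomb complex PRC2, was at 104, 96.2 and 75.6 CPM in cortex and 124, 106 and 109.9 CPM in hippocampus without overlap (0.30, SE 0.21). Its partner Suz12 differed by 0.37, SE 0.40 and the catalytic subunit Ezh2 by −0.05, SE 0.31. Circadian clock genes were higher in 10 of 18 cases (median 0.07; 8 of 18, −0.05, without the pair; leave-out range −0.22 without hippocampus 3 to 0.06 without hippocampus 2; −0.02 with the replicate block and −0.07 with at least 50 counts on average), with Tef, a clock-controlled factor, at 45.7, 61.9 and 40.5 CPM in cortex and 25.4, 30.9 and 41.5 CPM in hippocampus (−0.60, SE 0.31), and 2 of 18 members bounded within 2-fold.

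Receptors through which microglia meet neurons and their signals were higher in 10 of 17 cases (median 0.12; 11 of 17, 0.05, without the pair). Its leave-out range was 0.07 without hippocampus 2 to 0.26 without cortex 3. Gabbr1, a subunit of the metabotropic GABA receptor, was at 15.6, 15.1 and 9.61 CPM in cortex and 27.2, 22.8 and 18.4 CPM in hippocampus without overlap (0.76, SE 0.52). Nr3c1, the glucocorticoid receptor, was at 58.2, 112 and 90.4 CPM in cortex and 110.04, 89.4 and 169 CPM in hippocampus (0.50, SE 0.33). Adam17 and Adam10, sheddases related to Adam9, were at 199.8, 499 and 413 CPM in cortex and 534, 378 and 546 CPM in hippocampus and 192, 508 and 451 CPM in cortex and 512, 346 and 691 CPM in hippocampus, with overlap (0.39, SE 0.27 and 0.43, SE 0.38). Exons of Eed, Suz12, Ezh2, Tef and Adam17 overlap a gene on the other strand, so part of their counts may be that gene's. In the other regions Adam9 was at 274 ± 50.2 CPM in striatum and 215 ± 43.6 in cerebellum (SD, n = 3), and Irf3 at 108 ± 24.4 and 134 ± 1.63 CPM.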
